A study of Homo sapiens with 4 samples.

Results

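The 10 genes described here belong to the NF-kB pathway: the subunit genes NFKB1, NFKB2, RELA, REL and RELB, the inhibitor genes NFKBIA and TNFAIP3, and the target genes CXCL8, CXCL1 and BIRC3. They were chosen by name, with earlier results of these data known. The regions of each are the called intervals inside the gene and to 100 kb on each side of it. These windows held 184 of the 122856 regions of open chromatin in the study, and 2 of the 184 lay in the windows of both CXCL8 and CXCL1. Open chromatin was mapped by ATAC-seq, an assay that uses the Tn5 transposase to cut and label accessible DNA, in HCT116, an established human colorectal carcinoma line. One group (FOXD2, 2 libraries) carried a lentiviral pSin vector with the full-length coding sequence of the forkhead transcription factor FOXD2. The other group (control, 2 libraries) carried the empty pSin vector, and both groups were stable cells selected with puromycin. The labels do not say whether replicates are separate cultures, and their spread may thus be technical only.

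NF-kB is a family of dimeric transcription factors. In resting cells inhibitor proteins of the IkB family hold the dimers in the cytoplasm, and signals from TNF, interleukin-1 or bacterial products lead to destruction of the inhibitor. The freed dimers then enter the nucleus and bind kappa-B sites in promoters and enhancers of genes for cytokines, survival factors and the pathway's own inhibitors. In the colonic epithelium the pathway is known for its part in inflammation and in inflammation-linked cancer.

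Each library gave 1 list of peaks, and read depth is unknown. The lists held 82739 and 64675 intervals on chromosomes 1 to 22 and X in FOXD2 replicates 1 and 2, and 77752 and 72796 in control replicates 1 and 2. No list held a peak with under 8 tags at its summit (9 in FOXD2 replicate 2), which bounds how weak a listed site can be. Peaks at the starts of 10 of 10 epithelial marker genes were in all 4 libraries, against 2 of 8 leukocyte markers (SPI1 and CD68), 3 of 6 fibroblast markers and 0 of 6 endothelial markers. PTPRC, the pan-leukocyte gene, had none in any library, and of 7 intestinal markers 5 had one in all 4. Start peaks of the endothelial genes TEK and TIE1 were called in FOXD2 replicate 1 only. A peak near a gene end was called at the endothelial gene CDH5 with FOXD2 only, in both libraries. One at the T-cell gene CD3E was called in the controls only, in both libraries. Their part in the results was not tested. For markers without an annotated start in the tables used here, a peak near either gene end was counted as a start peak. Among these are CDH5, CD3E, SPI1, COL1A1, COL1A2, EPCAM, CDH1, KRT18, KRT19, ESRP1, GRHL2 and most intestinal markers. Inside the FOXD2 gene body both FOXD2 libraries had an interval (−log10 q 17.1 and 17.7), against 8.29 in control replicate 1 and none in control replicate 2; the vector carries this coding sequence, so vector and genomic copies cannot be told apart there. The peak across the lower-coordinate end of FOXD2 went the other way, at 50.4 and 24.4 in the FOXD2 libraries and 64.0 and 54.0 in the controls.

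Sequences before the starts of the inhibitor and target genes are shown, though the called intervals do not cover every base of them. At these 5 starts a kappa-B match, or in CXCL8 the string GGAATTTCC, lay inside the intervals of all 4 libraries. Such matches also lay before starts of NFKB1, NFKB2 and REL, whose sequences are not shown. Each sequence shown is the 250 bases before an annotated gene start from RefSeq (GRCh38.p14, the build called hg38), read 5′ to 3′ on the strand of the gene. They are chr14:35404750-35404999 (minus strand) for NFKBIA, chr6:137867009-137867258 (plus strand) for TNFAIP3, chr4:73740319-73740568 (plus strand) for CXCL8, chr4:73869143-73869392 (plus strand) for CXCL1 and chr11:102317234-102317483 (plus strand) for BIRC3. Capitals mark matches to the kappa-B consensus on either strand, and in CXCL8 the string GGAATTTCC.
NFKBIA: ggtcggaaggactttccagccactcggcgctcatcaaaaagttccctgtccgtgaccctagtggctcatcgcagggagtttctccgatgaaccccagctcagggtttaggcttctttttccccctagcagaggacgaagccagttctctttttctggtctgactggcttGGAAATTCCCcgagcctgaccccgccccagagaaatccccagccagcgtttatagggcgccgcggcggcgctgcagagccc
TNFAIP3: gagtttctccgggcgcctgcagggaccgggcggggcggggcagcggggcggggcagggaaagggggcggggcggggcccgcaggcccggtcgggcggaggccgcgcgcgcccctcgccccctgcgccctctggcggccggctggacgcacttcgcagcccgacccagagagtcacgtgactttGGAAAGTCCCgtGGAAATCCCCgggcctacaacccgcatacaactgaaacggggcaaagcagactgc
CXCL8: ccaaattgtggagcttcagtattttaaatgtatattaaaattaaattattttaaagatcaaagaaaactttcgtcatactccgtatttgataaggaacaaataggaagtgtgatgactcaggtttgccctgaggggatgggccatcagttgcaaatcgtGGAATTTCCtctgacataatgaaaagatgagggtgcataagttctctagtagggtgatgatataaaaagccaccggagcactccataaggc
CXCL1: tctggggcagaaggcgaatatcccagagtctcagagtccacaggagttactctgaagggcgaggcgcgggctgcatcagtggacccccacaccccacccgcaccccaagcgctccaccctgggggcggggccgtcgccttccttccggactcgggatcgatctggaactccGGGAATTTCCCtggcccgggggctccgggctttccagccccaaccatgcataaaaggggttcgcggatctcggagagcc
BIRC3: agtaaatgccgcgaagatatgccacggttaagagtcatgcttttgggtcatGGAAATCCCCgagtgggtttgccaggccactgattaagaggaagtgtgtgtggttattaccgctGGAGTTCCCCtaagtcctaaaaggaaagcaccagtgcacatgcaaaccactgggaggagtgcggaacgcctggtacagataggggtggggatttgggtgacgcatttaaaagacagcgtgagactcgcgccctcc

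The kappa-B consensus motif was found in 8 of the 13 promoters of the 9 member genes in the RefSeq promoter table (34961 promoters), that is in 7 of the 9 genes; it was found in 9.97% of all promoters of the table. RELB had no entry. The consensus was read as GGGRNNYYCC, where R is A or G, Y is C or T and N is any base. RELA and CXCL8 were the members without a match. CXCL8 holds instead GGAATTTCC, 83 to 91 bases before its start (chromosome 4, 73740478 to 73740486). This string, searched after the sequences had been seen and on both strands, occurs in 5 of the 13 promoters and in 0.415% of all promoters. Those 5 promoters belong to 5 of the 9 genes. In the other 4 genes, NFKB1, REL, NFKBIA and CXCL1, it lies within a match to the consensus. The CXCL8 promoter also holds an AP-1 site, the motif TGANTCA, 131 to 137 bases before the start, found in 6.54% of all promoters and in no other of the 13. The interval of control replicate 2 leaves out this AP-1 site, and the other 3 intervals cover it. The forkhead cores TGTTTAC and TGTTTGC, present in 2.98% and 3.22% of all promoters on either strand, had 0 matches in the 13 promoters.

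Across all 10 windows, open regions were found in similar numbers in both groups. FOXD2 replicates 1 and 2 had 134 and 109 of the 184 regions, and control replicates 1 and 2 had 132 and 122. The windows took 0.163% and 0.175% of the intervals of the FOXD2 lists, and 0.176% and 0.172% of those of the control lists. The lowest share was that of FOXD2 replicate 1, the longest list. All 4 libraries shared 78 of the 184 regions (42.4%, against 32.5% of all regions of the genome), and 52 (28.3%, against 40.8%) were in 1 library only. Gained regions, called in both FOXD2 libraries but in no control, numbered 5 (2.72%), and 3.89% of all regions were gained. Regions lost, in both controls and neither FOXD2 library, numbered 7 (3.8%), and 3.87% of all regions were lost. Both shares were near or under those of the genome. With 2 libraries a group the smallest exact two-sided p is 0.333, so no test of a difference between the groups was made, and all counts are descriptions of these 4 libraries.

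Peak strength was compared over the 39933 regions of the genome present in all 4 libraries. In each library these were ranked by −log10 q, and a percentile of 100 is the strongest. A region ranked higher with FOXD2 where both FOXD2 percentiles lay above both control percentiles, and lower in the reverse case. Of the 78 shared regions around the NF-kB genes, 21 (26.9%) ranked higher and 9 (11.5%) ranked lower, against 19.0% and 19.6% of all shared regions. In the windows of the inhibitors and targets 10 of 24 shared regions ranked higher and 1 ranked lower, with a median difference in percentile (FOXD2 minus control) of 8.82. By role the median was 11.3 for the inhibitors and 2.50 for the targets, and the 10 comprised 3 regions each at NFKBIA and TNFAIP3, 3 in the CXCL8-CXCL1 cluster and 1 at BIRC3, where 1 of 7 also ranked lower. In the windows of the 5 subunit genes 11 of 54 ranked higher and 8 ranked lower, with a median difference of −0.13, close to the −0.25 of all shared regions. Whether the inhibitor and target windows differ from the subunit windows was not tested. Leaving out 1 library loosens the definition. Without FOXD2 replicate 2, 33.7% of the shared regions around the NF-kB genes ranked higher, against 34.7% of all shared regions, and without control replicate 2, 35.3% ranked lower, against 34.4%, so neither departure from the genome held in every leave-out. An accessible site in more cells and a more open site in each cell cannot be told apart in these bulk libraries.

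**Figure D1:**
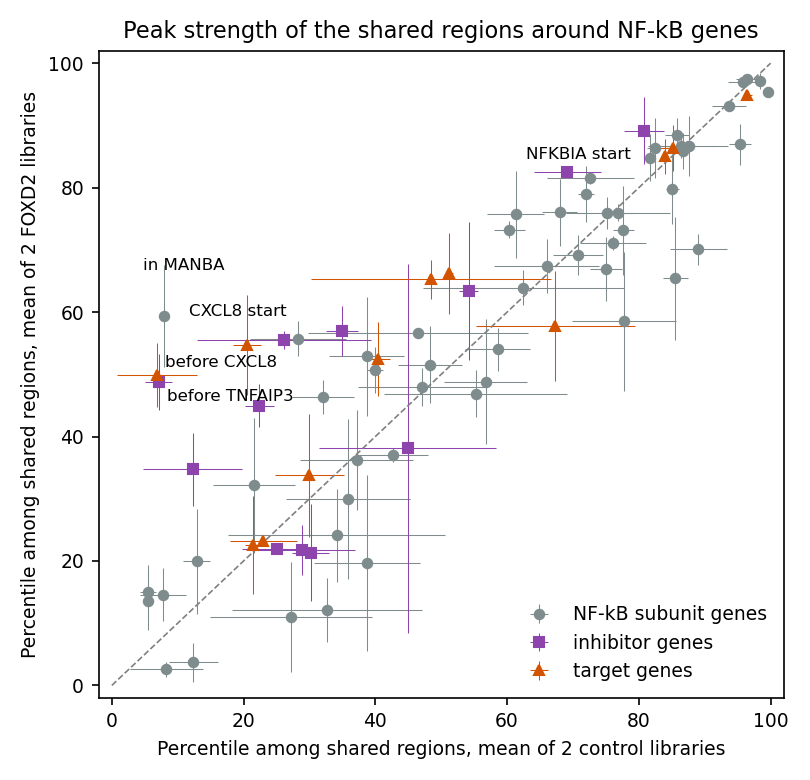
Percentile of −log10 q among the 39933 shared regions of the genome, as the mean of the 2 FOXD2 libraries (vertical axis) against the mean of the 2 control libraries (horizontal axis), for the 78 shared regions around the NF-kB genes; the arms reach the 2 single libraries of each group and the dashed line marks equal percentiles. The points farthest above the line are the region in MANBA after NFKB1, the regions before CXCL8 and TNFAIP3, and the CXCL8 start; 21 points rank higher with FOXD2 in both libraries and 9 rank lower.

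All 10 genes had a peak at their start in all 4 libraries, as had 66.0% of 19974 protein-coding genes, so none was gained or lost at a start (0.436% and 0.866% of protein-coding genes were). For RELB, whose strand the tables used here do not give, the peak at its lower-coordinate end stands for the start. Of the 19974 protein-coding genes, 15812 have an annotated start here, and for the rest a peak at either gene end was counted. The shares over gene starts given below count these ends too. The starts differed mainly in strength. Within FOXD2 replicate 1 and both controls, CXCL8 had the weakest of these start peaks, and within FOXD2 replicate 2 NFKB1 had it. RELB had the strongest in FOXD2 replicate 1 and control replicate 1, TNFAIP3 in FOXD2 replicate 2 and RELA in control replicate 2. The values of −log10 q in the next paragraphs compare best within a library, since its median over a whole list was 10.1 and 10.8 in the FOXD2 libraries and 11.1 and 11.9 in the controls.

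**Figure D2:**
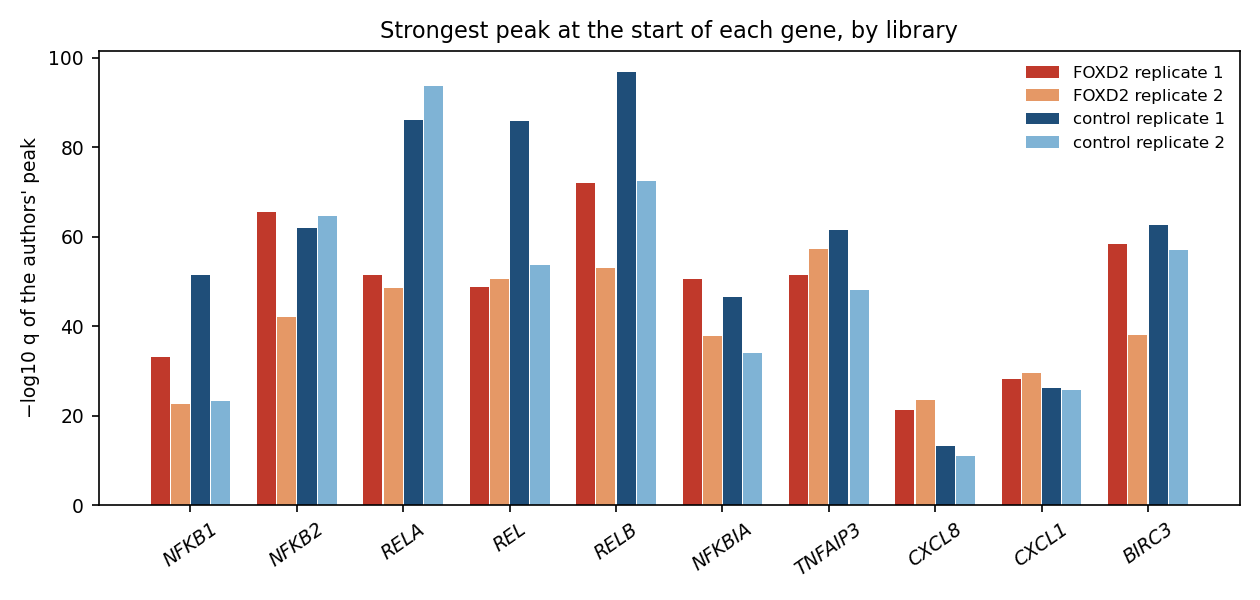
The −log10 q of the strongest peak at the start of each of the 10 genes, 1 bar per library; RELB is shown at its lower-coordinate end. CXCL8 and CXCL1 are higher in both FOXD2 libraries (21.3 and 23.4, and 28.2 and 29.5) than in both controls (13.2 and 10.9, and 26.1 and 25.8). RELA is lower (51.4 and 48.6, against 86.1 and 93.6). So are REL (48.8 and 50.6, against 85.9 and 53.6) and RELB (71.9 and 52.9, against 96.7 and 72.6), whose percentiles overlapped between the groups.

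Among the subunits, NFKB1 encodes p105, the precursor of the p50 subunit, and lies on chromosome 4 at 102501359 to 102617302. Its start peak had a −log10 q of 33.1 and 22.6 in FOXD2 replicates 1 and 2, and 51.4 and 23.3 in control replicates 1 and 2. The groups overlapped, and control replicate 1 stood highest. The region with the largest difference in any of the 10 windows lay here, inside MANBA, the beta-mannosidase gene, 70364 bp beyond the end of NFKB1 (102687666 to 102688515). Its −log10 q was 33.7 and 18.2 in the FOXD2 libraries (53 and 32 tags at the summit), against 8.11 and 7.03 in the controls (15 and 14 tags). In percentiles these were 67.5 and 51.2, against 8.52 and 7.22, a difference of 51.5 points that 0.170% of all shared regions matched or passed. A gained region lay 10580 bp beyond NFKB1 and 2560 bp from MANBA (102627882 to 102628210), with a −log10 q of 5.80 and 13.4 in the FOXD2 libraries. Thus both of the clearest FOXD2-side regions of this window lay in or nearest to MANBA rather than NFKB1.

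NFKB2, which encodes p100, the precursor of p52 in the noncanonical branch, lies on chromosome 10 at 102394110 to 102402529. At the peak over its first and second starts the −log10 q was 65.4 and 42.2 in the FOXD2 libraries and 61.9 and 64.6 in the controls, and at the third start 44.3 and 30.0 in the FOXD2 libraries and 54.3 and 39.8 in the controls. The groups overlapped at both. One lost region lay 1303 bp beyond the gene, inside PSD (102403832 to 102404111). It had 87 and 94 tags in the controls at folds of only 2.89 and 3.57, so it sat on a high local background. One region inside ACTR1A (102492453 to 102492837) was gained, with a −log10 q of 3.29 and 4.12, the weakest gained region of the 10 windows. A shared region in PSD ranked higher (102408643 to 102409631), by 14.4 points, which 11.3% of all shared regions matched or passed.

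RELA encodes p65, the main transactivating subunit, and lies on the minus strand of chromosome 11 at 65653601 to 65663857. Its start was the one member start that ranked lower with FOXD2. The −log10 q was 51.4 and 48.6 in the FOXD2 libraries (96 and 87 tags), and 86.1 and 93.6 in the controls (133 and 137 tags). The percentiles were 83.7 and 90.3, against 93.6 and 97.0, a difference of −8.31 points (−13.7 points by fold), and 19.0% of shared regions at gene starts ranked lower. Just beyond the gene, 437 bp from its end (65652198 to 65653164), a region went the other way, with a −log10 q of 50.1 and 26.8 in the FOXD2 libraries and 37.4 and 28.9 in the controls. Its difference was 14.4 points, which 11.2% of all shared regions matched or passed, although the −log10 q values of the groups overlapped. The window is dense in genes, with 36 regions, of which 3 shared ones ranked higher and 4 lower.

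The larger differences around RELA lay in its neighbours MAP3K11, a kinase gene of the MAP kinase cascade, and PCNX3. One region in MAP3K11 (65613619 to 65614505) had a −log10 q of 27.5 and 18.9 in the FOXD2 libraries and 18.4 and 11.9 in the controls, a difference of 27.5 points. A second region in that gene (65606764 to 65607674) had 35.4 and 16.8, against 64.9 and 39.1, a difference of −19.2 points, so the single gene held both directions. The region in PCNX3 (65615137 to 65616302) had 33.8 and 29.3, against 63.2 and 79.2, a difference of −19.0 points. Both lost regions of the window also lay in other genes, KCNK7 (65593810 to 65594054, −log10 q 9.36 and 9.71 in the controls) and PCNX3 (65636373 to 65636645, 5.99 and 4.94).

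REL encodes c-Rel, a subunit best known from lymphocytes, and lies on chromosome 2 at 60881574 to 60931612. Its start peak had a −log10 q of 48.8 and 50.6 in the FOXD2 libraries, and 85.9 and 53.6 in the controls. Both FOXD2 values lay below both control values, but the percentiles overlapped (81.8 and 91.5, against 93.6 and 81.6). This window had few stable regions, 2 shared of 14, and neither ranked higher or lower. Its gained region (60958843 to 60959394, −log10 q 6.06 and 3.61 in the FOXD2 libraries) and its lost region (60972956 to 60973349, 10.8 and 6.66 in the controls) both lay inside PUS10, a pseudouridine synthase gene. The lost one borders another region (60973403 to 60973991) found in FOXD2 replicate 1 and both controls, and it was no longer lost when intervals up to 200 bp apart were joined.

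RELB, a subunit of the noncanonical branch that pairs with p52, lies on chromosome 19 at 45001464 to 45038192. The peak at its lower-coordinate end had a −log10 q of 71.9 and 52.9 in the FOXD2 libraries and 96.7 and 72.6 in the controls. As at REL, the percentiles overlapped (93.6 and 92.7, against 96.2 and 91.1). No region of the window was gained or lost, and of 15 shared regions 4 ranked higher and 3 lower. The region 676 bp beyond its other end, at CLASRP (45038868 to 45039657), ranked lower, with 25.7 and 31.6 in the FOXD2 libraries (47 and 52 tags) and 61.3 and 64.3 in the controls (85 and 92 tags), a difference of −20.1 points. A region in PPP1R37 (45130906 to 45131483) had a difference of −20.6 points, although its values of 7.03 and 8.48 in the FOXD2 libraries stood against 11.6 and 23.2 in controls that differed from each other. The regions that ranked higher by 10 points or more lay in or near GEMIN7 (12.9 points) and in PPP1R37 (10.8 points). Of all shared regions, 13.2% and 16.4% matched or passed these differences.

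NFKBIA encodes IkB-alpha, the inhibitor that holds NF-kB in the cytoplasm and is itself induced by NF-kB; it lies on the minus strand of chromosome 14 at 35401513 to 35404749. Its start ranked higher with FOXD2. The −log10 q was 50.6 and 37.8 in the FOXD2 libraries (97 and 76 tags), and 46.6 and 34.1 in the controls (90 and 69 tags). These values overlapped between the groups, and the percentiles did not, at 83.1 and 82.0 against 74.2 and 64.1. Their difference of 13.4 points was matched or passed by 12.4% of all shared regions. The difference was 7.81 points without control replicate 2. In the sequence above, the consensus site lies 72 to 81 bases before the start and inside the interval of all 4 libraries.

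Beyond the end of NFKBIA, 2 more shared regions ranked higher. At 35687 bp (35365134 to 35365826) the −log10 q was 24.9 and 20.6 in the FOXD2 libraries and 20.1 and 8.99 in the controls, a difference of 29.4 points. At 45070 bp (35355742 to 35356443) it was 22 and 14.8 in the FOXD2 libraries and 12.2 and 13.2 in the controls, a difference of 22.5 points; PSMA6 is the nearest gene there. None of the 7 shared regions ranked lower (19.6% of all shared regions did), but other regions of the window stood on the control side. One before the gene (35413133 to 35413817), 8384 bp away, had a −log10 q of 23.3 in FOXD2 replicate 1, none in FOXD2 replicate 2, and 29.8 and 39.9 in the controls. Near PSMA6 a gained region (35331579 to 35331919, −log10 q 11.0 and 4.39 in the FOXD2 libraries) and a lost region (35332170 to 35332528, 6.54 and 7.02 in the controls) lay next to each other, 69594 and 68985 bp from NFKBIA.

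TNFAIP3 encodes A20, a ubiquitin-editing enzyme that is induced by NF-kB and ends the signal; it lies on chromosome 6 at 137866349 to 137883312. It is the only protein-coding gene in its window, and all 17 regions were nearest to it. The start peak had a −log10 q of 51.5 and 57.3 in the FOXD2 libraries and 61.6 and 48.0 in the controls, and the groups overlapped. No region was gained or lost. Of the 5 shared regions 3 ranked higher, 2 before the gene and 1 after it, beside 19.0% of all shared regions. In the stretch before the gene 3 regions, shared or not, had a higher −log10 q in both FOXD2 libraries than in either control, and another ranked higher by percentile.

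The nearest of the shared ones, 12378 bp before TNFAIP3 (137853397 to 137853971), had a −log10 q of 20.2 and 19.0 in the FOXD2 libraries (41 tags in each), against 6.80 and 7.81 in the controls (14 and 18 tags). Its percentiles were 44.3 and 53.2, against 5.03 and 9.16, a difference of 41.7 points that 0.599% of all shared regions matched or passed. The authors' folds, 6.65 and 6.29 against 5.36 and 5.19, were closer together than the tags, and by fold the difference was 24.0 points. A region 14304 bp before the gene (137851741 to 137852045) had 15.4 and 16.3 in the FOXD2 libraries, none in control replicate 1 and 7.60 in control replicate 2. One at 36270 bp (137829377 to 137830079) had 19.6 and 18.0 in the FOXD2 libraries, 7.98 in control replicate 1 and none in control replicate 2. The fourth, at 54408 bp (137811338 to 137811941), had 28.8 and 18.9, against 19.3 and 16.3, a difference of 22 points in percentile; its −log10 q in FOXD2 replicate 2 lay between those of the controls. After the gene, at 61508 bp (137944820 to 137945369), the values were 18.7 and 11.3 in the FOXD2 libraries and 12.1 and 6.13 in the controls, a difference of 22.4 points. The remaining shared region, at 65685 bp before the gene (137800004 to 137800664), had 11.9 and 9.57, against 12.1 and 15.4, and did not rank higher.

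**Figure D3:**
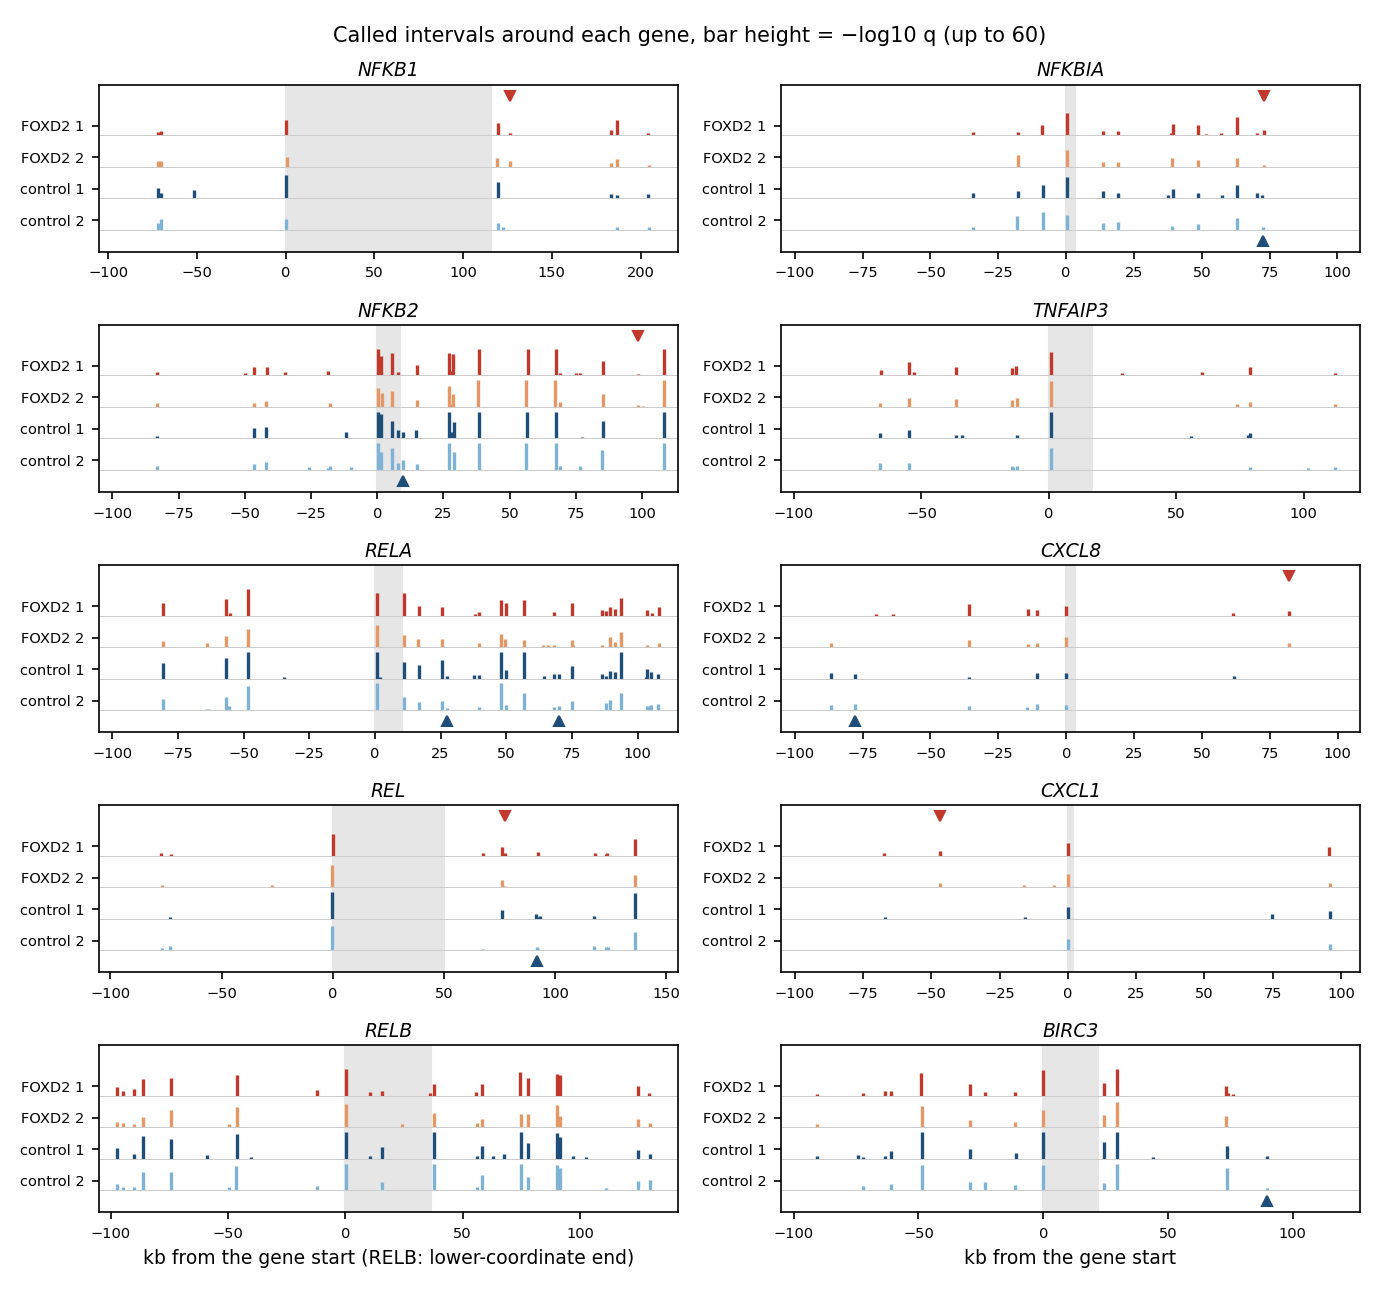
Called intervals around each of the 10 genes, by library, at their distance in kb from the gene start; the height of a bar is its −log10 q, drawn up to 60, and grey marks the gene. Red triangles mark the 5 gained regions (1 is drawn for both CXCL8 and CXCL1) and blue triangles the 7 lost regions; the stretch before TNFAIP3 has taller bars in both FOXD2 libraries at 12378, 14304 and 36270 bp.

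CXCL8 encodes interleukin-8, a chemokine that draws neutrophils and a standard readout of NF-kB activity in epithelial cells; it lies on chromosome 4 at 73740569 to 73743716. Its start peak (73740343 to 73740825) was stronger in both FOXD2 libraries. The −log10 q was 21.3 and 23.4 in the FOXD2 libraries, and 13.2 and 10.9 in the controls. The summits held 28 and 30 tags, against 20 and 18, at folds of 10.2 and 10.9, against 7.83 and 7.0. On each of these scales the groups did not overlap. The percentiles were 46.7 and 62.7, against 22.7 and 18.3, a difference of 34.2 points that 1.29% of all shared regions matched or passed; 16.5% of shared regions at gene starts ranked higher. The GGAATTTCC string shown above lay inside the interval of all 4 libraries, with the summit 138 and 86 bp from it in the FOXD2 libraries and 23 and 187 bp from it in the controls.

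A second region before CXCL8, 35592 bp away (73704492 to 73704977), differed in the same direction. Its −log10 q was 25.4 and 15.9 in the FOXD2 libraries (40 and 30 tags), against 4.36 and 8.93 in the controls (11 and 17 tags), and the percentiles were 55.0 and 44.8, against 0.799 and 12.9. The difference of 43.0 points was matched or passed by 0.501% of all shared regions. In control replicate 1 this peak stood near the bottom of the list, and it was not in all 4 libraries when a −log10 q of 5 was required. At 13856 bp before the gene (73726067 to 73726713) the values were 14.7 and 7.24 in the FOXD2 libraries, none in control replicate 1 and 5.93 in control replicate 2. The third shared region, 10619 bp before the gene (73729597 to 73729950), had 12.3 and 9.99, against 11.4 and 14.6, and the groups overlapped. One region 77566 bp before CXCL8 (73662705 to 73663003) was lost, with 11.1 and 13.0 in the controls; its nearest gene is RASSF6.

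**Figure D4:**
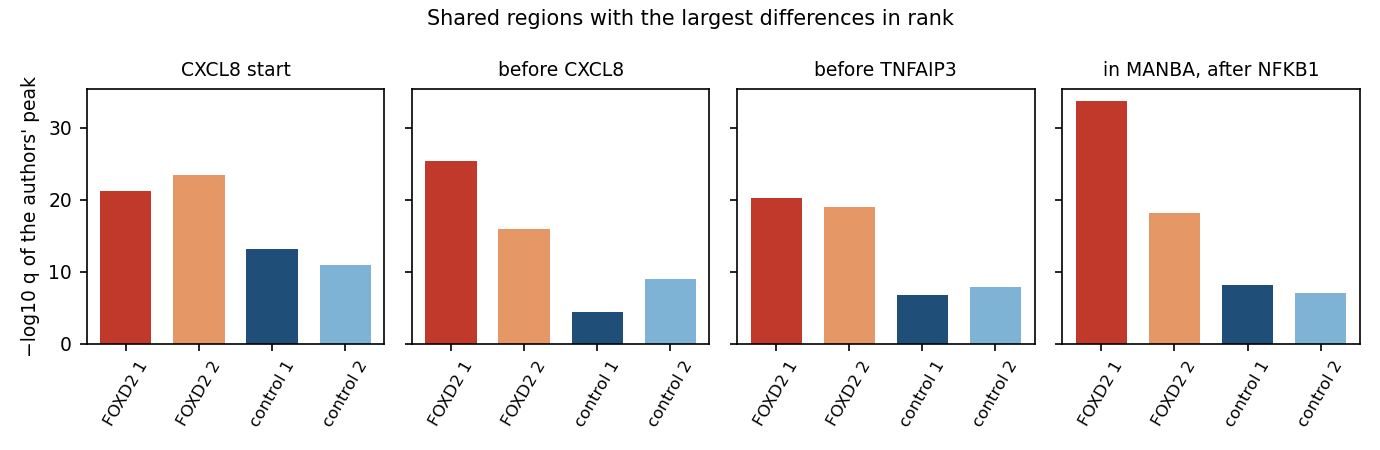
The −log10 q in each library (1 bar each) for the CXCL8 start and the 3 shared regions with the largest differences in percentile: before CXCL8, before TNFAIP3 and in MANBA after NFKB1. In each panel both FOXD2 libraries lie above both controls, the smallest gap being in the region before CXCL8 (15.9 in FOXD2 replicate 2, against 8.93 in control replicate 2).

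CXCL1, a second neutrophil chemokine, lies in the same cluster at 73869393 to 73871308. Its start peak (73868821 to 73869933) had a −log10 q of 28.2 and 29.5 in the FOXD2 libraries (50 tags in each), against 26.1 and 25.8 in the controls (47 and 46 tags). The groups did not overlap, but the step in tags was small, and the percentiles were 59.7 and 72.7, against 50.6 and 51.9. Their difference of 15.0 points was matched or passed by 10.5% of all shared regions. The difference was 7.65 points without FOXD2 replicate 2. Between CXCL8 and CXCL1 lay the gained region of the cluster (73822382 to 73822712), 13966 bp from CXCL6, with a −log10 q of 9.41 and 8.36 in the FOXD2 libraries at 17 and 16 tags. In the cluster as a whole 3 of 5 shared regions ranked higher and none lower, beside 19.0% and 19.6% of all shared regions. Whether these 5 regions depart from those shares was not tested.

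BIRC3 encodes cIAP2, a ubiquitin ligase that keeps TNF receptor signalling on the survival path; it lies on chromosome 11 at 102317484 to 102339403. At its start the groups overlapped, and FOXD2 replicate 2 stood lowest. The −log10 q was 58.4 and 38.0 in the FOXD2 libraries (76 and 55 tags), and 62.7 and 56.9 in the controls (78 and 74 tags). One shared region before the gene, 28833 bp away (102288006 to 102288651), ranked higher, with 27.3 and 16.5 in the FOXD2 libraries and 21.6 and 19.0 in the controls. Its −log10 q overlapped between the groups, and the difference in percentile was 12 points, which 14.3% of all shared regions matched or passed. A lost region lay 67490 bp beyond BIRC3 in TMEM123 (102406893 to 102407229), with 5.38 and 6.13 in the controls at 12 and 13 tags.

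None of the 12 gained and lost regions had a member gene as its nearest protein-coding gene, as 57 of all 184 regions had, and none lay at a member's start. Their summits held 11 to 31 tags in the gained regions and 12 to 94 in the lost ones. The −log10 q was 3.29 to 13.4 in the FOXD2 libraries for gained regions, and 4.94 to 22.4 in the controls for lost regions. Of the 29 shared regions nearest to a member gene, 11 ranked higher and 1 lower, and of the 49 nearest to another gene, 10 ranked higher and 8 lower, beside 19.0% and 19.6% in the genome; whether these groups of regions differ was not tested. Requiring a difference of 10 points or more left 16 higher (20.5% of 78) and 4 lower (5.13%), against 12.8% and 13.1% of all shared regions. The 4 lower ones were all in the windows of RELA and RELB.

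Other genes of the pathway were counted in the same way. A list of 70 further genes, from receptors and adaptors to kinases, other inhibitors and targets, had start peaks in all 4 libraries for 55 genes and in none for 11. Of the 70, 62 have an annotated start, and for the rest a peak at either gene end was counted. No gene of the list had a start peak in both libraries of 1 group and neither of the other. Outside the windows of the 10 genes they had 1282 regions, of which 31 (2.42%) were gained and 45 (3.51%) lost, both under the 3.89% and 3.87% of all regions. Of their 569 shared regions 100 (17.6%) ranked higher and 126 (22.1%) lower, against 19.0% and 19.6% of all shared regions. The median difference was −0.25 points, as it was over all shared regions. Both directions were found around these genes, with more lower than higher, as also in the genome. Whether these shares differ from those of the genome was not tested.

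Gained regions lay inside 6 of these genes: TRAF6, the ubiquitin ligase of interleukin-1 and Toll-like receptor signalling (−log10 q 26.7 and 12.9 in FOXD2 replicates 1 and 2), SOD2, the mitochondrial superoxide dismutase (12.9 and 11.5), the caspase-8 regulator CFLAR, the kinase adaptor TAB2, TNFAIP8 and COMMD1. The 8 lost regions inside such genes were in TNFRSF1B (2 regions) and TNFRSF1A, the TNF receptor genes, and in TRAF3, IL1R1, BCL2L1, TAB1 and IKBKB. Within 100 kb, 26 of the 70 genes (37.1%) had a gained region, against 40.9% of all protein-coding genes, and beside those 6 they were BCL2A1, BCL3, CCL20, CXCL6, GADD45B, ICAM1, IL1A, IL1B, IL1R1, LTBR, MAP3K14, NFKBIE, NFKBIZ, RBCK1, RIPK1, SHARPIN, TNFRSF1A, TNIP1, TRAF2 and TRAF3. A lost region was within 100 kb of 31 genes (44.3%), against 45.7% of all protein-coding genes, and beside the 7 genes with such a region inside they were BCL3, BIRC2, CCL20, CHUK, COMMD1, CSF2, CXCL10, IKBKG, IL1A, IL1B, IRF1, LTB, LTBR, MAP3K14, MYD88, NFKBID, NFKBIL1, PLAU, RBCK1, RIPK1, RNF31, SHARPIN, SOD2 and TNF. CXCL6 was counted only through the gained region between CXCL8 and CXCL1, and BIRC2 only through the lost region beyond BIRC3. Outside the member windows, 25 genes had a gained region and 30 had a lost one. Several of the genes, such as IL1R1, TNFRSF1A and TRAF3, had both, and both shares within 100 kb stood under those of all genes.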

How the data were processed

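The submitters' processing notes name hg38, MACS2 2.2.7.1 and Bowtie2 2.3.4.1 beside cutadapt 3.4, bedtools and Picard; for settings, and for any shift of read ends for the Tn5 cut, the sources used here give nothing. The authors deposited 1 peak list per library, with no pooled list. Each peak carries the authors' fold enrichment at its summit, a ratio to local background, and the deposited −log10 p and −log10 q. These values belong to 1 list and served to describe and rank peaks within it. Summit tags were recovered from fold and −log10 p as MACS2 relates them, and for 100% of peaks with a −log10 p below 60 they gave it back to within 0.002.

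Intervals sharing 1 bp or more on chromosomes 1 to 22 and X were joined as regions (Python 3.11.15, pandas 2.3.3); the strongest interval gave a library's value. Gene positions and promoters came from RefSeq (GRCh38.p14), which lists no exons here, so places inside genes are not split further. A gene-start peak lay within 1000 bp of a start, or of either gene end where the promoter table had no entry. The members, their windows and all lists were chosen with earlier results of these data known. Named were all members, every gained and lost region, each start, shared regions differing by 10 or more percentile points in 1 direction, and pathway genes with a gained or lost region. The counting of regions and ranks was tested on simulated lists. Alternatives were summit windows, joined intervals, a stricter −log10 q, lists of equal length, shorter flanks, nearest gene, ranks by fold, and leaving out each library.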

Additional observations from a re-analysis of the deposited data

How the results depend on the processing

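The counts around the NF-kB genes were 5 gained and 7 lost regions and 21 higher-ranking and 9 lower-ranking shared regions. Of 46 alternatives to these counts 22 stayed within 1.5 times and 24 moved. Of 60 alternatives for single regions 51 stayed within the spread and 9 moved, and of 12 for the difference of the median percentiles 9 stayed and 3 moved; none of either kind reversed a direction. Gained regions numbered 3 with a −log10 q of 5 or more, 3 within 50 kb and 1 within 20 kb. Lost regions numbered 3 within 50 kb and 2 within 20 kb. Within 20 kb 8 shared regions ranked higher and 3 lower. Among regions nearest to a member, 0 were gained, 0 were lost, 11 ranked higher and 1 lower. Leaving out 1 library loosens each definition. Gained regions then numbered 11 to 19, lost regions 8 to 29, higher-ranking regions 30 to 37 and lower-ranking regions 20 to 30. The matching genome shares also rose. Without FOXD2 replicate 2, 33.7% of the shared regions ranked higher, against 34.7% in the genome, and without control replicate 2, 35.3% ranked lower, against 34.4%. Higher-ranking shares stayed above the genome's without FOXD2 replicate 1 (39.2% against 35.7%), control replicate 1 (44.0% against 33.2%) and control replicate 2 (41.2% against 32.3%). Lower-ranking shares stayed below it without FOXD2 replicate 1 (30.4% against 36.7%), FOXD2 replicate 2 (27.0% against 35.8%) and control replicate 1 (23.8% against 33.9%). Since each leave-out also changes the definition, it cannot show which library carries either departure. The region before CXCL8 gave no value under lists of equal length or a −log10 q of 5, nor did the NFKBIA start under summit windows. No paired analysis was possible because the results come from no test, and the labels tie a replicate number to no shared culture, batch or day. With no depth and a lowest pileup of 8 or 9 tags, a missing interval shows only that no peak was called.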
